A study of Mus musculus with 9 samples.

Results

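Axon guidance genes were read in Lewis lung carcinoma (LLC) cells with and without CD47, a cell surface receptor best known as the "don't eat me" signal seen by macrophages. The set held every mouse gene of the Slit, Robo, semaphorin, plexin, neuropilin, netrin, Unc5, ephrin and Eph families in the count table, taken by gene name. It came to 68 genes of 50813 listed, 35 ligands and 33 receptors. Of these, 49 had enough reads to be tested, among 14593 genes tested in all. LLC is a mesenchymal-like mouse lung cancer line, and all 3 lines studied carried luciferase and were grown in culture with serum and no further treatment. The WT group kept Cd47, and the CD47 KO E3 and CD47 KO E5 groups were each grown from 1 cell after Cas9 protein and a single Cd47 guide had been delivered by electroporation. PolyA RNA was sequenced from 3 biological replicates of each line, giving 44257404 to 55095219 counts per library. Since each knockout is 1 clone, the loss of CD47 and the history of a clone cannot be told apart within either comparison. In these bulk libraries, fewer cells making a transcript and less RNA per cell also cannot be told apart.

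Guidance cues were first described as signals that steer growing axons, and the same families act on migrating, vascular and tumour cells. Slits are secreted and bind Robo receptors. Class 3 semaphorins are secreted and mostly act through a neuropilin paired with a plexin, while semaphorins of classes 4 to 7 are membrane bound and bind plexins directly. Netrins act through Dcc and Unc5 receptors. Ephrins sit on the cell surface and bind Eph receptor tyrosine kinases on neighbouring cells, ephrin-A through a lipid anchor and ephrin-B through a transmembrane segment.

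The labels and the libraries were checked first. Cd47 averaged 182 CPM (counts scaled to a common library size) in WT, 44.6 CPM in E3 and 17.4 CPM in E5. Of 6 mesenchymal markers, all 6 were tested and none was called in either clone, with summed levels of 6122 to 6609 CPM in WT, 6321 to 7052 CPM in E3 and 7225 to 8633 CPM in E5. Of 6 epithelial markers, Epcam and Cldn4 stayed at 3 counts or fewer in every library, and the summed level, which Krt8 and Krt18 lead, was 451 to 459 CPM in WT, 127 to 199 CPM in E3 and 896 to 958 CPM in E5. Alveolar markers summed to 5.83 to 10.3 CPM across the libraries, with Nkx2-1, Sftpc and Sftpb at 3 counts or fewer throughout. The leukocyte markers Ptprc, Csf1r and Cd3e were at that floor as well, Cd68 averaged 2.82, 2.44 and 3.04 CPM in WT, E3 and E5, and Lyz2 averaged 0.256, 0.379 and 0.0196 CPM and was called lower in E5 (log2 fold change -3.49, edgeR adjusted p = 0.00483). Endothelial markers summed to 0.185 to 0.480 CPM. Neuron and glia markers summed to 3.85 to 4.05 CPM in WT, 8.07 to 14.2 CPM in E3 and 6.92 to 7.57 CPM in E5, with Rbfox3 at the floor and Map2 the member called higher in both clones. The part of the epithelial and the neuron and glia levels in the results was not tested. Replicate 3 of E3 stood apart, with long genes (8762 exon bases or more) at a median of -0.37 (log2) from its line's mean and short genes (3204 or fewer) at 0.27. In the other 8 libraries these medians ran from -0.03 to 0.20 and from -0.16 to 0.04. The tested guidance genes, whose median exon length was 7880 bases against 5693 for all tested genes, sat at -0.30 in that library. The results described below whose call turns on that library are given without it as well.

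Guidance genes moved in both directions in each clone. A gene was called where edgeR's quasi-likelihood test gave a Benjamini-Hochberg adjusted p under 0.05 and the log2 fold change passed 1 in either direction. In E3 against WT, 7 guidance genes rose and 5 fell, 24.5% of the 49 tested, where 5.43% of all tested genes rose and 4.39% fell. In E5 against WT, 5 rose and 13 fell, or 36.7%, against 2.69% and 5.52% of all tested genes. On the adjusted p alone, 28 members passed in E3 and 23 in E5, 57.1% and 46.9%, where 30.5% and 20.6% of all tested genes did. The median log2 fold change of the members was 0.07 in E3 and -0.06 in E5, near the 0.01 and -0.00 of all tested genes, and the median size of the change was 0.65 and 0.63 against 0.31 and 0.25. In all, 25 of them were called in at least 1 clone, 18 of 31 tested ligands (58.1%) and 7 of 18 tested receptors (38.9%), where 14.3% of all tested genes were. Of the tested members, 3 (Epha3, Epha4 and Sema3d) passed the filter on low counts through 1 line alone, so they had to differ between lines, and they stand in these counts without a p of their own below.

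**Figure D1:**
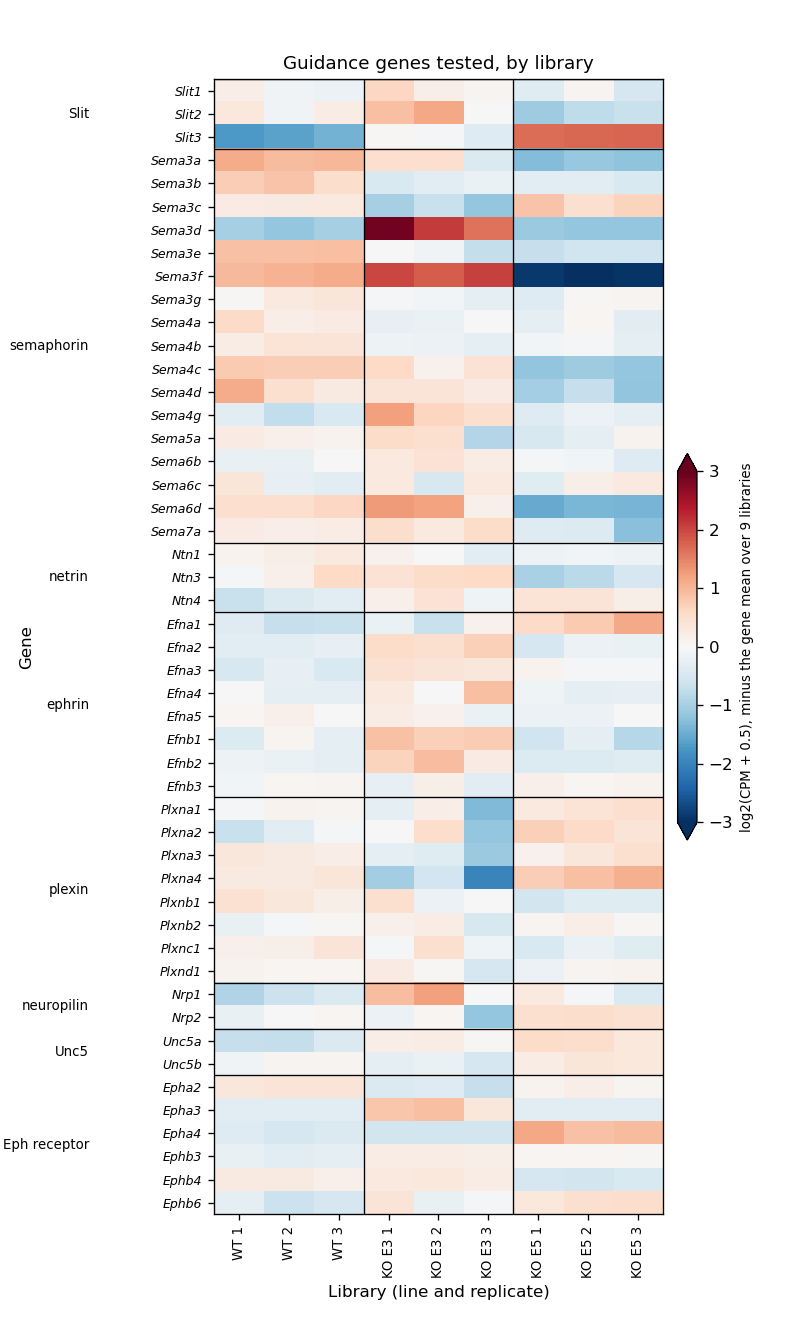
Heat map of the 49 tested guidance genes, grouped by family, in the 9 libraries, as log2 of CPM plus a pseudocount of 0.5 minus the mean of the gene over the libraries. Slit3 goes from blue in WT to red in E5, and Sema3f is blue in the 3 E5 libraries.

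Promoters of 4 called genes show how far the set differs in base composition, and their 300 bases before the annotated start are shown, 5′ to 3′ on the gene's strand, with each CpG in capitals. They are the genes with the highest rise shared by both clones (Slit3), the steepest fall in E5 (Sema3f), a transcript near 0 outside E3 (Sema3d) and a CpG-rich contrast that fell in E5 (Sema6d). Windows were read from GRCm39 at the canonical start of GENCODE M39, chr11:35011489-35011788 on the plus strand for Slit3, chr9:107587675-107587974 on the minus strand for Sema3f, chr5:12432824-12433123 on the plus strand for Sema3d and chr2:124451801-124452100 on the plus strand for Sema6d. The start in use in these cells was not measured. The Sema6d window lies inside the span that the count table gives the gene (chr2:123931889-124509690), so it precedes an internal start. Of the 68 members, 8 had the same start and end in GENCODE M39 as in the count table.
Slit3: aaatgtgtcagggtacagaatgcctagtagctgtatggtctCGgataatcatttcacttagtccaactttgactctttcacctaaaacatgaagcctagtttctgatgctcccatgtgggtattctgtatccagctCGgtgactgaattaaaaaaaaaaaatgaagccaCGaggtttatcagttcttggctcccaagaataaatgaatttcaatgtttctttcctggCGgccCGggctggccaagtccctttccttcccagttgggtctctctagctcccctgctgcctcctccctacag
Sema3f: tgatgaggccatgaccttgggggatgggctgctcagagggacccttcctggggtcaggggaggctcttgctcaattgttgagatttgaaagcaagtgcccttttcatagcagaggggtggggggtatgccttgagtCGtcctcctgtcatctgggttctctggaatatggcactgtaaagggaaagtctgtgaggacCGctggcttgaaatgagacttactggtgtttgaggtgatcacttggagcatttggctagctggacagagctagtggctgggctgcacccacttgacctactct
Sema3d: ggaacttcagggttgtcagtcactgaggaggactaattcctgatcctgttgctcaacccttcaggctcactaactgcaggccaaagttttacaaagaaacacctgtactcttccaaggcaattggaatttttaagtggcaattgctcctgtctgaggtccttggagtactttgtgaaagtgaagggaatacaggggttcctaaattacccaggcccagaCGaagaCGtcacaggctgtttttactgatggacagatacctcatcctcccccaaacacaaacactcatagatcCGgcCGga
Sema6d: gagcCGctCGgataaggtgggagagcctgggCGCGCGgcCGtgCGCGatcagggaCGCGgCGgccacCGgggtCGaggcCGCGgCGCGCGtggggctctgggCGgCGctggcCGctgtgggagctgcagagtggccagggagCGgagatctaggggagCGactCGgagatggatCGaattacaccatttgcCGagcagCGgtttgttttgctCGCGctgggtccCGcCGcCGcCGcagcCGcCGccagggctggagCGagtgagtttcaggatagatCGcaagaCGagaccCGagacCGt
Slit3 had 5 CpG, Sema3f 2, Sema3d 4 and Sema6d 40, where the median of 21402 protein-coding promoters was 9 (quartiles 3 and 17). The 64 member promoters that were read had a median of 13.5. Members on chromosomes 8 and 18 (Efnb2, Nrp1, Unc5d and Sema6a) were left out, while the promoters of all genes included those chromosomes. A GGGCGG box, which itself holds a CpG, occurred on either strand in 62.5% of the member promoters and 37.7% of all. The TATAAA box occurred in 3.12% of the members and 14.1% of all, and CAGGTG, an E-box read by Snail and Zeb repressors, in 14.1% and 21.0%. Of the 4 windows, Sema3d held CAGGTG and Sema6d held GGGCGG. The 13 promoters of genes that fell in E5 ranged from 2 to 40 CpG (median 9) and the 5 of genes that rose in E5 from 5 to 31 (median 19), so the counts overlapped.

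Of the 10 guidance genes with the highest level per length, 6 were receptors and 4 ligands. On the scale of CPM per kilobase of exon, Unc5b, a netrin receptor, led with 63.7 in WT, 50.2 in E3 and 77.0 in E5. Plxnb2, the receptor of Sema4c, and Epha2, an Eph kinase, followed with means over the 9 libraries of 53.9 and 41.3. The ligand Ntn1 averaged 36.0, Nrp2 27.1 and Sema4c 16.5, and Plxna1, Sema3e, Plxnd1 and Sema4b completed the 10 highest. The same 10 genes led when the canonical transcript gave the length. At the other end, 19 members were not tested, none of them over 7 counts in any library, and 8 had no count in any library.

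**Figure D2:**
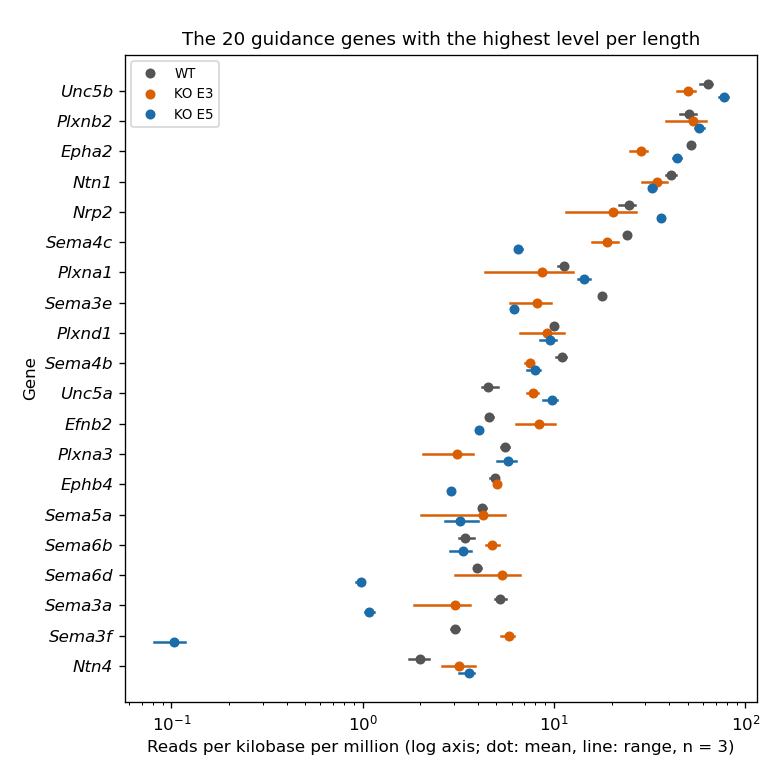
Level (CPM per kilobase of exon, log axis) of the 20 guidance genes with the highest mean, with a dot for the mean of each line and a bar for the range of its 3 libraries. Unc5b has the highest mean over the libraries and Plxnb2 the next.

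Among the Slits, Slit3 rose in both clones and Slit2 fell in E5. Slit3 (chr11:35012051-35599334, GRCm39) stood at 0.821, 0.925 and 1.12 CPM in WT, at 3.96, 3.63 and 2.84 CPM in E3 and at 13.3, 13.7 and 14.1 CPM in E5. The lines did not overlap, and the order was WT, E3, E5. Slit3 rose by a log2 fold change of 1.86 (SE 0.17, edgeR adjusted p = 5.18e-05) in E3 and 3.84 (SE 0.17, edgeR adjusted p = 2.82e-07) in E5. Slit2, its close relative, was at 0.861, 0.526 and 0.781 CPM in WT, at 1.54, 1.97 and 0.594 CPM in E3 and at 0.0215, 0.152 and 0.185 CPM in E5. The E5 libraries lay under all the others, while replicate 3 of E3 fell inside the WT range. Slit2 fell in E5 (log2 fold change -2.54, SE 0.60, edgeR adjusted p = 0.0135), and in E3 it gave 0.92 (edgeR adjusted p = 0.152), or 1.27 (edgeR adjusted p = 0.00817) without replicate 3 of E3. Slit1 was under 1 CPM and called in neither clone. The receptors of these ligands were close to absent, since Robo1, Robo2, Robo3 and Robo4 had at most 6 counts in any library, and fold changes were not computed for them.

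Class 3 semaphorins were all tested, and 6 of 7 were called in at least 1 clone, where 14.3% of all tested genes were. In E3, 1 rose (Sema3d, which passed the filter on low counts through E3 alone) and 3 fell. In E5, 4 fell. Of all tested genes, 5.43% rose and 4.39% fell in E3, and 5.52% fell in E5. Sema3f, a repellent that binds Nrp2, was at 16.4, 17.3 and 18.0 CPM in WT, 34.3, 29.7 and 35.0 CPM in E3 and 0.668, 0.455 and 0.629 CPM in E5. The lines were fully apart, with E3 above WT and E5 far under it. Sema3f fell in E5 (log2 fold change -4.87, SE 0.15, edgeR adjusted p = 1.96e-08), and in E3 its 0.94 (SE 0.12, edgeR adjusted p = 0.000286) missed the fold threshold, which it passed at 1.00 without replicate 2 of E3. Sema3b, its neighbour 72.3 kb away on chromosome 9, was at 1.14, 1.28 and 0.929 CPM in WT, 0.220, 0.275 and 0.352 CPM in E3 and 0.280, 0.282 and 0.222 CPM in E5. It lay lower in every knockout library than in any WT library. Sema3b fell in both clones, by -1.98 (SE 0.26, edgeR adjusted p = 0.000398) in E3 and -2.09 (SE 0.26, edgeR adjusted p = 0.000317) in E5 on the log2 scale.

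Sema3e, which binds Plxnd1 without a neuropilin, was the most abundant of the class per length. It stood at 213, 213 and 215 CPM in WT, 116, 107 and 70.3 CPM in E3 and 71.4, 75.5 and 76.3 CPM in E5. All knockout libraries were under WT, and replicate 3 of E3 was the lowest of its line. Sema3e fell in E5 (-1.52 on the log2 scale, SE 0.16, edgeR adjusted p = 9.62e-05) and in E3 (-1.13, SE 0.16, edgeR adjusted p = 0.000582), where the value without replicate 3 was -0.94, under the fold threshold, with an edgeR adjusted p of 8.4e-07. Sema3a, the classic neuropilin-1 ligand, was at 87.4, 77.1 and 80.7 CPM in WT, 56.4, 57.2 and 29.2 CPM in E3 and 16.01, 18.0 and 16.9 CPM in E5. The lines did not overlap. Sema3a fell in E5 (log2 fold change -2.27, SE 0.22, edgeR adjusted p = 5.55e-05), and in E3 its -0.78 (edgeR adjusted p = 0.0184) missed the fold threshold.

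Sema3c and Sema3d set the clones apart. Sema3c was at 1.40, 1.43 and 1.46 CPM in WT, 0.300, 0.507 and 0.220 CPM in E3 and 2.41, 1.74 and 2.03 CPM in E5. It fell in E3 (log2 fold change -2.05, SE 0.28, edgeR adjusted p = 0.000483) and in E5 was 0.53 (edgeR adjusted p = 0.147). Sema3d had 3, 0 and 3 counts in WT, 394, 206 and 135 counts in E3 and 1, 0 and 0 counts in E5. In E3 the summed counts gave a ratio of 124 over WT (exact 95% interval 56.8 to 340, counting error only), and no fold was given for E5, where both groups were at the floor of 3 counts per library. Sema3g was called in neither clone. Sema3d, Sema3a and Sema3e lie in a row on chromosome 5, with gaps of 536 kb and 423 kb, so the neighbours did not share a direction in E3.

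Of 10 tested membrane-bound semaphorins of classes 4 to 7, 5 fell in E5 and none rose, and 1 rose in E3. Of all tested genes, 5.52% fell in E5 and 5.43% rose in E3. Sema4c, a Plxnb2 ligand, was at 160, 155 and 154 CPM in WT, 141, 102 and 125 CPM in E3 and 40.8, 44.2 and 41.2 CPM in E5. Every E5 library was far under the others. Sema4c fell by -1.89 (log2, SE 0.12, edgeR adjusted p = 2.52e-06) in E5, and in E3 its -0.35 (edgeR adjusted p = 0.0438) missed the fold threshold. Sema6d, a ligand of Plxna1 in heart and bone, was at 44.8, 44.6 and 48.0 CPM in WT, 76.9, 72.9 and 34.9 CPM in E3 and 10.7, 11.7 and 11.6 CPM in E5. The E5 libraries lay apart, and E3 had replicates 1 and 2 above WT and replicate 3 under it. Sema6d fell in E5 (log2 fold change -2.01, SE 0.24, edgeR adjusted p = 0.000246). In E3 it gave 0.43 (edgeR adjusted p = 0.196), or 0.71 (edgeR adjusted p = 9.8e-06) without replicate 3, under the fold threshold.

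Sema4d, which acts through Plxnb1, was lower in expression. Its values were 2.52, 1.45 and 1.18 CPM in WT, 1.34, 1.33 and 1.17 CPM in E3 and 0.194, 0.369 and 0.111 CPM in E5. It fell in E5 by -2.95 (log2, SE 0.41, edgeR adjusted p = 0.000601). Sema7a, a lipid-anchored semaphorin that binds integrins and Plxnc1, was at 3.67, 3.53 and 3.61 CPM in WT, 4.60, 3.78 and 4.66 CPM in E3 and 2.18, 2.15 and 0.980 CPM in E5. Replicate 3 of E5 was the lowest. Its log2 fold change in E5 was -1.04 (SE 0.26, edgeR adjusted p = 0.0168), and the call was lost without replicate 3 of E5, at -0.74 (edgeR adjusted p = 0.0153), and without WT replicate 1, 2 or 3, at -1.02, -1.05 and -1.04 (edgeR adjusted p = 0.0540, 0.0505 and 0.0520). Sema4a, another membrane semaphorin, had 45, 28 and 29 counts in WT, 15, 15 and 20 counts in E3 and 13, 22 and 13 counts in E5. Its fall in E5 (log2 fold change -1.08, edgeR adjusted p = 0.0402) was lost without WT replicate 1, 2 or 3 (-0.86, -1.20 and -1.18) or E5 replicate 1 or 3 (-0.99 and -0.89), and in E3 its -0.99 (edgeR adjusted p = 0.0412) was called, at -1.18, when replicate 3 of E3 was left out, and also with no filter on low counts. Sema4g, a little-studied class 4 member, rose in E3, from 2.90, 2.04 and 2.55 CPM in WT to 9.40, 6.04 and 5.36 CPM (log2 fold change 1.47, SE 0.22, edgeR adjusted p = 0.000872), and stood at 2.74, 3.21 and 3.00 CPM in E5. Strand counting was not stated, and 2 of these genes share exon bases with a gene on the opposite strand, Sema4d with Secisbp2 over 1766 bases and Sema4g with Mrpl43 over 1181 bases, so reads of the partners cannot be told apart.

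**Figure D3:**
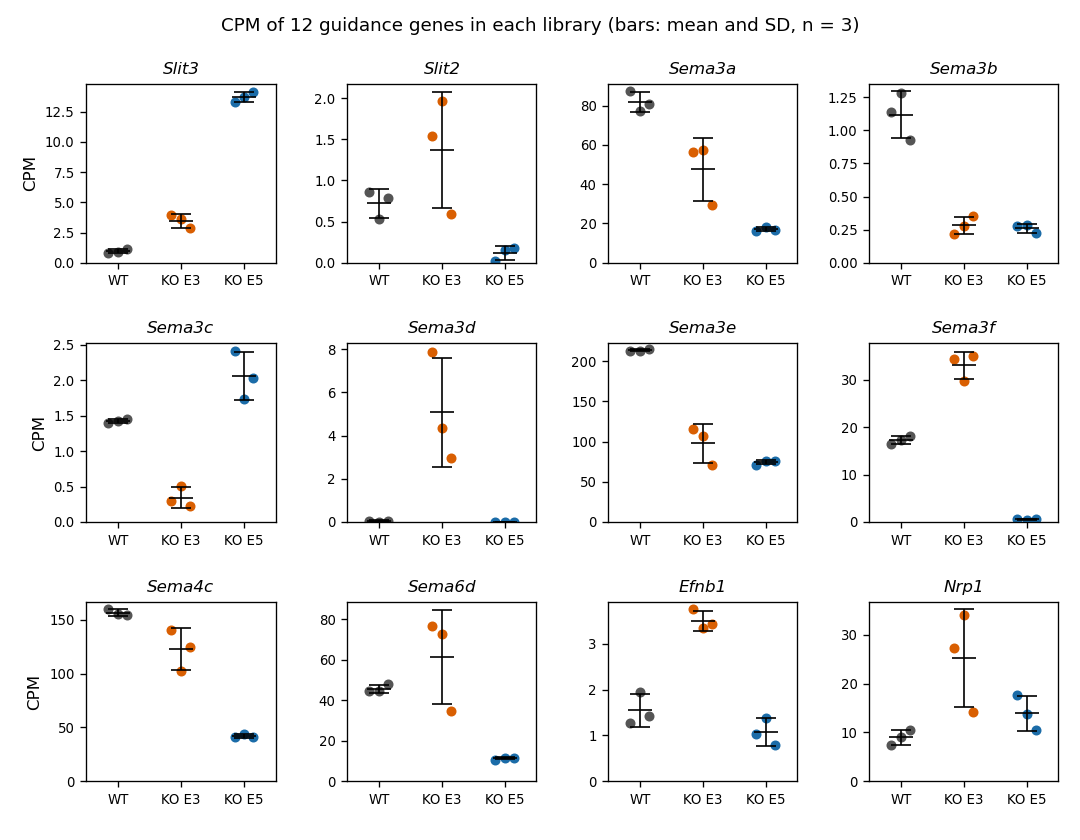
CPM of 12 called guidance genes in each of the 9 libraries, by line, on linear axes that start at 0, with bars for the mean and SD (n = 3). The 3 lines do not overlap for Slit3, and for Sema3f the E5 libraries lie far under WT while those of E3 lie above it.

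Plexins and neuropilins are the semaphorin receptors. Called in at least 1 clone were 3 of 8 tested plexins and 1 of 2 neuropilins, where 14.3% of all tested genes were. Of the plexins, 1 was called in E3 and 2 in E5, all lower, and Nrp1 rose in E3. Of all tested genes, 9.82% were called in E3 and 8.21% in E5. Plxna4, a partner of neuropilins in class 3 signalling, was at 10.96, 10.9 and 11.7 CPM in WT, 4.10, 5.90 and 1.89 CPM in E3 and 15.2, 17.3 and 19.3 CPM in E5. The lines did not overlap. Plxna4 fell in E3 (log2 fold change -1.49, SE 0.30, edgeR adjusted p = 0.00406), and -1.16 remained without replicate 3 of E3, while E5 gave 0.63 (edgeR adjusted p = 0.151). Nrp1 was at 7.45, 9.02 and 10.5 CPM in WT, 27.4, 34.0 and 14.2 CPM in E3 and 17.6, 13.8 and 10.4 CPM in E5. E3 lay above WT, most closely in replicate 3, and the E5 range met that of WT. Nrp1 rose in E3 (log2 fold change 1.49, SE 0.30, edgeR adjusted p = 0.00395), and E5 gave 0.63 (edgeR adjusted p = 0.162). Plxnb1, the Sema4d receptor, had 39, 32 and 26 counts in WT, 40, 15 and 20 counts in E3 and 6, 10 and 12 counts in E5, and fell in E5 (log2 fold change -1.80, SE 0.40, edgeR adjusted p = 0.00931). Plxnc1, the Sema7a receptor, had 15, 15 and 21 counts in WT, 10, 24 and 7 counts in E3 and 1, 6 and 3 counts in E5 (log2 fold change -2.32, SE 0.61, edgeR adjusted p = 0.0228), a call that was lost without WT replicate 2 or 3 (-2.40 and -2.13) or E5 replicate 1 or 3 (-1.94 and -2.18). The abundant receptors Plxnb2, Plxna1, Plxnd1 and Nrp2 were called in neither clone. Plxnb2 gave 0.07 (edgeR adjusted p = 0.789) in E3, or 0.26 (edgeR adjusted p = 0.0293) without replicate 3 of E3, under the fold threshold.

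In the netrin group, the receptor Unc5a rose in E5 and the ligand Ntn3 fell. Unc5a was at 23.0, 22.7 and 27.6 CPM in WT, 43.1, 44.3 and 38.7 CPM in E3 and 55.8, 54.7 and 47.04 CPM in E5. Both clones lay above WT. Its log2 fold change was 1.11 (SE 0.11, edgeR adjusted p = 8.46e-05) in E5 and 0.78 (SE 0.11, edgeR adjusted p = 0.000671) in E3, the latter under the fold threshold. Ntn3 was at 0.821, 1.03 and 1.56 CPM in WT, 1.36, 1.5 and 1.56 CPM in E3 and 0.194, 0.282 and 0.462 CPM in E5, and fell in E5 (log2 fold change -1.83, SE 0.34, edgeR adjusted p = 0.0037). Its exons share 168 bases with Tbc1d24 on the same strand. Ntn1, the main netrin, was called in neither clone, with log2 fold changes of -0.24 and -0.32. Its receptor Dcc stayed at 3 counts or fewer. Neo1, a co-receptor in the list of guidance partners below, averaged 194, 169 and 183 CPM in WT, E3 and E5 and was called in neither clone.

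Of 8 tested ephrins, 2 rose in E3 and 2 in E5, and none was called lower. Of all tested genes, 5.43% rose in E3 and 2.69% in E5. The median log2 fold change of the ephrins was 0.78 in E3 and -0.01 in E5. Efna1, a partner of EphA receptors, was at 4.57, 3.64 and 3.67 CPM in WT, 5.32, 3.70 and 6.82 CPM in E3 and 9.39, 11.1 and 14.1 CPM in E5. Only the E5 libraries were apart from WT, and Efna1 rose in E5 (log2 fold change 1.54, SE 0.23, edgeR adjusted p = 0.000904). Efnb1, a transmembrane ephrin, was at 1.26, 1.96 and 1.44 CPM in WT, 3.76, 3.34 and 3.43 CPM in E3 and 1.03, 1.39 and 0.795 CPM in E5. It rose in E3 (log2 fold change 1.18, SE 0.23, edgeR adjusted p = 0.00312). Efna3, which lies 32.8 kb from Efna1 on chromosome 3 and shares 759 exon bases with Gm15998 on the opposite strand, had 9, 14 and 9 counts in WT, 40, 35 and 32 counts in E3 and 24, 19 and 23 counts in E5. It rose in E3 (log2 fold change 1.75, SE 0.27, edgeR adjusted p = 0.00101), and its 1.02 in E5 (edgeR adjusted p = 0.0293) was lost without WT replicate 1 or 3 (0.89 and 0.92) or E5 replicate 1, 2 or 3 (0.91, 1.08 and 1.06). Efnb2, an ephrin of blood vessels, gave 0.86 (edgeR adjusted p = 0.00178) in E3 and was called there, at 1.02, without replicate 3 of E3. Efna2 gave 1.00 in E3 (edgeR adjusted p = 0.000655), just under the fold threshold, and passed it without WT replicate 3 or E3 replicate 1 or 2, at 1.02, 1.01 and 1.04.

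Of the Eph receptors, 6 of 14 were tested. The 2 called passed the filter on low counts through 1 line alone and were near 0 in the other lines. Of all tested genes, 14.3% were called in at least 1 clone. Epha3 had 32, 33 and 14 counts in E3 and none in any WT or E5 library, so E3 was at least 8.82-fold higher than WT (floor of 3 counts per library). Epha4 had 53, 39 and 49 counts in E5, against 3, 1 and 2 in WT and none in E3. The ratio of summed counts of E5 over WT was 23.2 (exact 95% interval 10.4 to 64.3, counting error only). Epha4 is also among the 5 lower calls of E3, but both of those groups were at the floor, no fold is given, and the call was lost without WT replicate 1 or 3 or E3 replicate 1 or 2. Each of these receptors thus appeared in a different clone. Epha2, the most abundant Eph, was 243 ± 5.38 CPM in WT, 133 ± 14.2 CPM in E3 and 205 ± 9.66 CPM in E5 (mean ± SD, n = 3), with a log2 fold change of -0.87 (edgeR adjusted p = 0.000184) in E3, short of the fold threshold. Ephb4, the Efnb2 receptor, gave -0.76 (edgeR adjusted p = 0.000203) in E5, and Ephb6, which lacks kinase activity, 0.97 (edgeR adjusted p = 0.00381), which passed the fold threshold without WT replicate 1 or E5 replicate 1, at 1.09 and 1.03.

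The clones were also set directly against each other. In E5 against E3, 5 guidance genes were higher and 15 lower, 40.8% of those tested, where 3.49% of all tested genes were higher and 7.52% lower. On the adjusted p alone 30 members passed, or 61.2%, where 31.9% of all tested genes did. The 5 higher in E5 were Slit3, Efna1, Plxna4, Sema3c and Epha4, and the lower ones included 8 semaphorins. Slit3, which rose in both clones, was 1.98 higher (log2, SE 0.15, edgeR adjusted p = 7.37e-06) in E5 than in E3, and Sema3b, which fell in both, differed by -0.11 (edgeR adjusted p = 0.817). Leaving out replicate 3 of E3 gave 22 calls, adding Nrp1 (-1.13) and Slit1 (-1.36), and leaving out replicate 2 of E3 added Efna2 (-1.03), Nrp2 (1.08), Plxna1 (1.10) and Plxna2 (1.06).

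**Figure D4:**
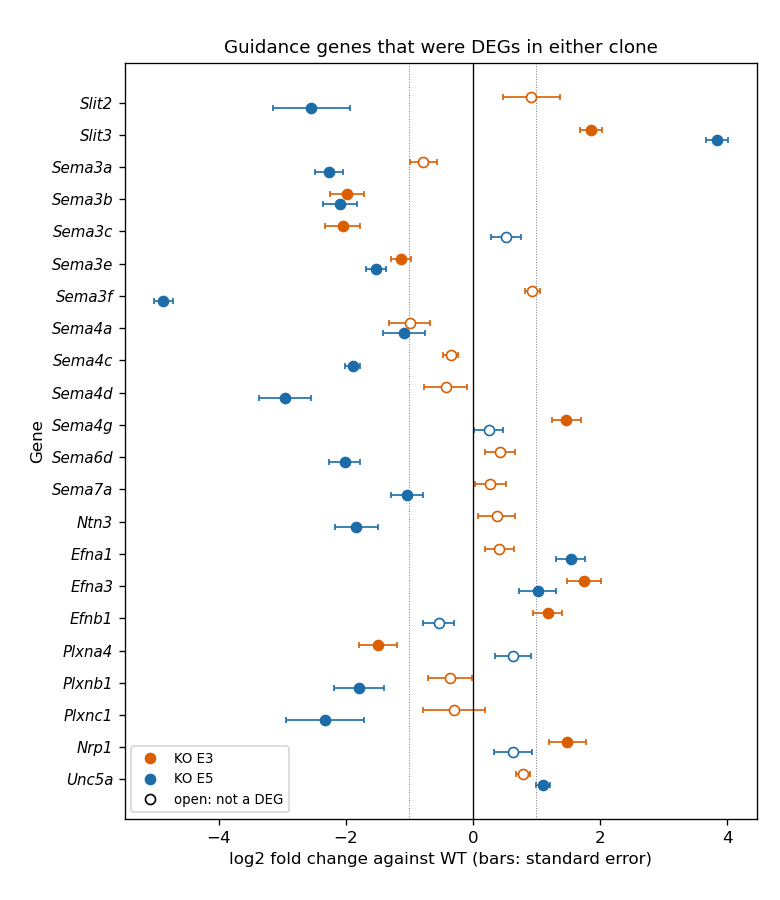
Log2 fold change with its standard error for the called guidance genes in E3 and in E5 against WT, open where the gene was not called in that clone. Epha3, Epha4 and Sema3d, which lie at the detection floor in WT, are not drawn. Slit3 is higher and Sema3b lower in both clones, while Sema3f is at 0.94 in E3 and -4.87 in E5.

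Guidance partners, a list of 69 co-receptors and intracellular effectors, was described in the same way. Of 57 tested, 1 rose and 6 fell in E3 and 1 rose and 6 fell in E5, with a median log2 fold change of -0.01 in each. The 7 calls in each clone were 12.3% of the 57 tested, near the 9.82% and 8.21% of all tested genes called in E3 and in E5. The genes below are given as single values of the list. Crmp1, a relay of semaphorin signals to the cytoskeleton, averaged 14.2 CPM in WT, 26.6 CPM in E3 and 0.0772 CPM in E5, and fell in E5 by -7.52 (log2, edgeR adjusted p = 6.72e-09). Fyn, a Src-family kinase downstream of plexins and Eph receptors, averaged 136, 36.2 and 48.1 CPM and fell in E3 (log2 fold change -1.92, edgeR adjusted p = 2.7e-05) and in E5 (-1.50, edgeR adjusted p = 9.08e-05). Rnd1, a GTPase that binds plexins, also fell in both, by -1.56 and -1.37 (edgeR adjusted p = 0.00028 and 0.000619). So did Flrt1, by -3.55 and -3.04 (edgeR adjusted p = 0.00329 and 0.00732), averaging 1.01, 0.0835 and 0.113 CPM in WT, E3 and E5. Rgma fell in E5 (log2 fold change -1.91, edgeR adjusted p = 1.03e-05). In E3 alone, Vav3 (-1.19), Arhgef11 (-1.46) and L1cam (-1.35) fell (edgeR adjusted p = 0.00101, 0.0011 and 0.00956). Ntng2, a lipid-anchored netrin relative, rose in E3 (log2 fold change 1.77, edgeR adjusted p = 0.00126) and fell in E5 (-2.39, edgeR adjusted p = 0.00137). Pak1, a kinase downstream of Rac and Cdc42, rose in E5 (log2 fold change 1.01, edgeR adjusted p = 3.85e-05).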

How the data were processed

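RNA-seq was analysed from 9 LLC libraries, 3 each of WT, CD47 KO E3 and CD47 KO E5. Per the labels and methods, the authors made directional polyA libraries, sequenced them as paired ends, checked them with FastQC, trimmed with Trimmomatic and aligned with STAR to GRCm39. The deposited values are raw counts per gene. Which program counted the reads, whether it used strand, and which gene annotation it read are not given in the sources used here. Overlapping or duplicated exons can therefore split or pool reads.

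Counts were scaled by TMM and tested with edgeR 4.0.16 in R 4.3.3 (quasi-likelihood), all 9 libraries in 1 fit and with filterByExpr at a minimum count of 10 and total of 15. p-values were Benjamini-Hochberg adjusted over all 14593 genes tested. A gene was called at adjusted p under 0.05 and a log2 fold change over 1. The biological coefficient of variation was 14.8%. Where a group had 3 counts or fewer per library, ratios of summed counts or a floor of 3 counts were used, which cover counting error only. The fits were tested on simulated data. Exon lengths and promoters came from GENCODE M39. Every library of a called member is printed where a line averaged 1 CPM or more, with others by their counts. The gene families, partner list and markers were chosen with earlier results of these data known. Alternatives were DESeq2 1.42.0, other scalings and filters, fits of 2 lines, the replicate number as a block and leaving out each library. The summed level of the leukocyte markers is not reported here.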

Additional observations from a re-analysis of the deposited data

Results flagged for a closer look

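For 20 guidance genes, 40.8% of those tested, the effects of the 2 clones against WT differed, by the direct edgeR test of E5 against E3 with all 9 libraries. Of all tested genes, 3.49% were higher and 7.52% lower in that comparison. Of these, 3 (Epha3, Epha4 and Sema3d) passed the filter on low counts through 1 line alone and so had to differ. Slit3 (1.98), Efna1 (1.13), Plxna4 (2.12) and Sema3c (2.58) were higher in E5 than in E3 on the log2 scale. Epha4 was at least 15.3-fold higher in E5, against E3 libraries with no count.

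Lower in E5 than in E3 on the log2 scale were Slit2 (-3.46), Sema3a (-1.49), Sema3f (-5.81), Sema4c (-1.54), Sema4d (-2.52), Sema4g (-1.22), Sema6d (-2.44), Sema7a (-1.31), Ntn3 (-2.21), Efnb1 (-1.72), Efnb2 (-1.04), Plxnb1 (-1.44) and Plxnc1 (-2.03). Sema3d had 735 counts in E3 against a single count in E5 (replicate 1), a ratio of 754 whose exact 95% interval ran from 135 to 29836 (counting error only). Epha3 was at least 8.89-fold higher in E3 than in E5. The calls of 5 of these genes were lost when 1 library was left out. Without E3 replicate 1, Plxnb1 gave -0.98 and Sema4g -0.94. Without E3 replicate 2, Efna1 gave 0.93, Efnb2 -0.88 and Plxnc1 -1.35. Without E5 replicate 1, Plxnb1 gave -1.24 and Plxnc1 -1.64, without E5 replicate 2 Plxnb1 gave -1.54, and without E5 replicate 3 Efna1 gave 0.96 and Plxnc1 -1.88. All of the lost Plxnb1 and Plxnc1 values had adjusted p above 0.05, and the others fell under the fold threshold.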

How the results depend on the processing

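Of 30 calls against WT, 24 were kept in every alternative that tested the gene, 6 were lost in at least 1 (Epha4 and Sema3e in E3, and Efna3, Plxnc1, Sema4a and Sema7a in E5) and none was reversed. The 24 kept include Epha3 and Sema3d in E3 and Epha4 in E5, which had to differ between lines as described above. Requiring at least 10 counts in every library left these genes untested. The number called without the fold threshold was 28 in E3. Requiring at least 10 counts in every library left 9 in E3 against WT, 11 in E5 against WT and 12 in E5 against E3, with 39 members tested. The share of all tested genes called was not computed for the alternatives, so these counts are not set against a background. Without replicate 3 of E3, 1438, 1351 and 1582 genes of the whole series were called in E3, E5 and E5 against E3. The main fit called 1433, 1198 and 1606. DESeq2 called 12, 17 and 20 in E3, E5 and E5 against E3. Leaving out a library gave 11 to 14, 14 to 18 and 19 to 22 calls. The replicate numbers are not stated to mark shared cultures, and 1 of 9 libraries correlated best with its own number in another line. A replicate block gave 11, 16 and 20 calls, and the Epha4 call in E3 and the Efna3 and Sema4a calls in E5 were lost with it. Pairwise correlations between libraries of the same number ran from -0.17 to 0.05. They were taken after each line's mean was removed, so they do not settle whether libraries of the same number shared a culture.

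Depth limited the genes with few reads: Plxnb1, Plxnc1, Sema4a, Efna3, Epha3 and Epha4 averaged under 1 CPM, and Sema3d and Epha4 rest on counts of 3 or fewer in WT. The clones and the replicates of 1 clone cannot separate CD47 from clonal history.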
